A study of Homo sapiens with 9 samples.

Results

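The 49 genes described here encode the machinery that makes ribosomes in the nucleolus, together with the transcription factor MYC. They were taken by name from the deposited count data, which list 61544 genes. All 49 were found, and all 49 were among the 14727 genes tested. Libraries came from HMC3, an unedited human line of microglial origin made to grow without limit by the SV40 large T antigen, and its cells were treated for 6 days with a cocktail of small molecules or with the solvent. SLO held 10 µM SBI-0206965, 1 µM O-151 and 1 µM Lopinavir, which act against the autophagy kinase ULK1, the DNA glycosylase OGG1 and the maturation of Lamin A. In SLO ½ the same compounds were given at 5, 0.5 and 0.5 µM, and VEH cells received DMSO alone. Each of the 3 groups had 3 libraries of polyadenylated RNA. All groups share one immortalized line, and because the compounds were given together, the part of each compound cannot be told apart.

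Ribosomes are assembled in the nucleolus, where RNA polymerase I transcribes a long precursor of the ribosomal RNAs. Small nucleolar ribonucleoproteins modify this precursor: those of the box C/D class methylate ribose and those of the H/ACA class turn uridine into pseudouridine. A first large assembly on the precursor, the small subunit processome, folds and cuts the small subunit RNA, and separate sets of helicases, GTPases and scaffolds build the large subunit. MYC is a well known activator of many genes of this machinery, and cells that grow and divide fast keep the machinery at a high level.

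Each library had 14834295 to 19674841 reads on genes, of which 81655 to 143478 fell on the 49 genes. Changes are log2 fold changes of CPM (read counts divided by library size, scaled by edgeR's TMM factors) with their standard error, and a gene was called at an adjusted p below 0.05 in edgeR's quasi-likelihood test over all 14727 genes. The labels do not say whether the 3 libraries of a group were separate cultures, so p-values measure the spread between these libraries, which may be technical. The share of mitochondrial transcripts was at most 1.61% of gene reads in the VEH libraries and at least 2.30% in the treated ones. Of 16 microglia markers, 14 averaged under 1 TPM (the deposited values scaled for gene length) in every group, and P2RY12, TYROBP, C1QA, C1QB and GPR34 were at 0 in all 9 libraries. Proliferation markers, 10 genes such as MKI67 and MCM2, had a summed level of 5732 to 5821 TPM for VEH, 4735 to 4986 TPM for SLO ½ and 4562 to 4775 TPM for SLO. Fibroblast and pericyte markers, 12 genes, reached 1760 to 1985 TPM for VEH, 2411 to 2450 TPM for SLO ½ and 3089 to 3280 TPM for SLO. The part of mitochondrial reads, of proliferation and of these marker genes in the results below was not tested.

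The 49 genes together held 6197, 6554 and 6677 TPM in the VEH libraries, 5887, 5912 and 5975 TPM in SLO ½ and 4738, 4864 and 4944 TPM in SLO. None of these ranges overlapped. Per unit of length, nucleolin (NCL) stood highest in VEH at 811 ± 39.3 TPM (SD, n = 3), followed by nucleophosmin (NPM1) at 588 ± 16.9 TPM and NOP10 at 446 ± 22.8 TPM. NOP2 was lowest at 2.36 ± 0.386 TPM and the median of the 49 genes was 87.2 TPM. The value of NOP2 is uncertain, since 54.4% of its exon bases are shared with another protein-coding gene and reads that fit several genes were not counted. Abundant genes weigh most in the sums above. From VEH to SLO ½ the mean went from 811 to 704 TPM for NCL, 588 to 459 TPM for NPM1 and 292 to 193 TPM for FBL. By log2 fold change of CPM, 24 of the 49 genes lay below 0 at that dose and 25 above. Since whole cultures were measured, fewer transcripts per cell and fewer cells with a given level cannot be told apart.

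**Figure D1:**
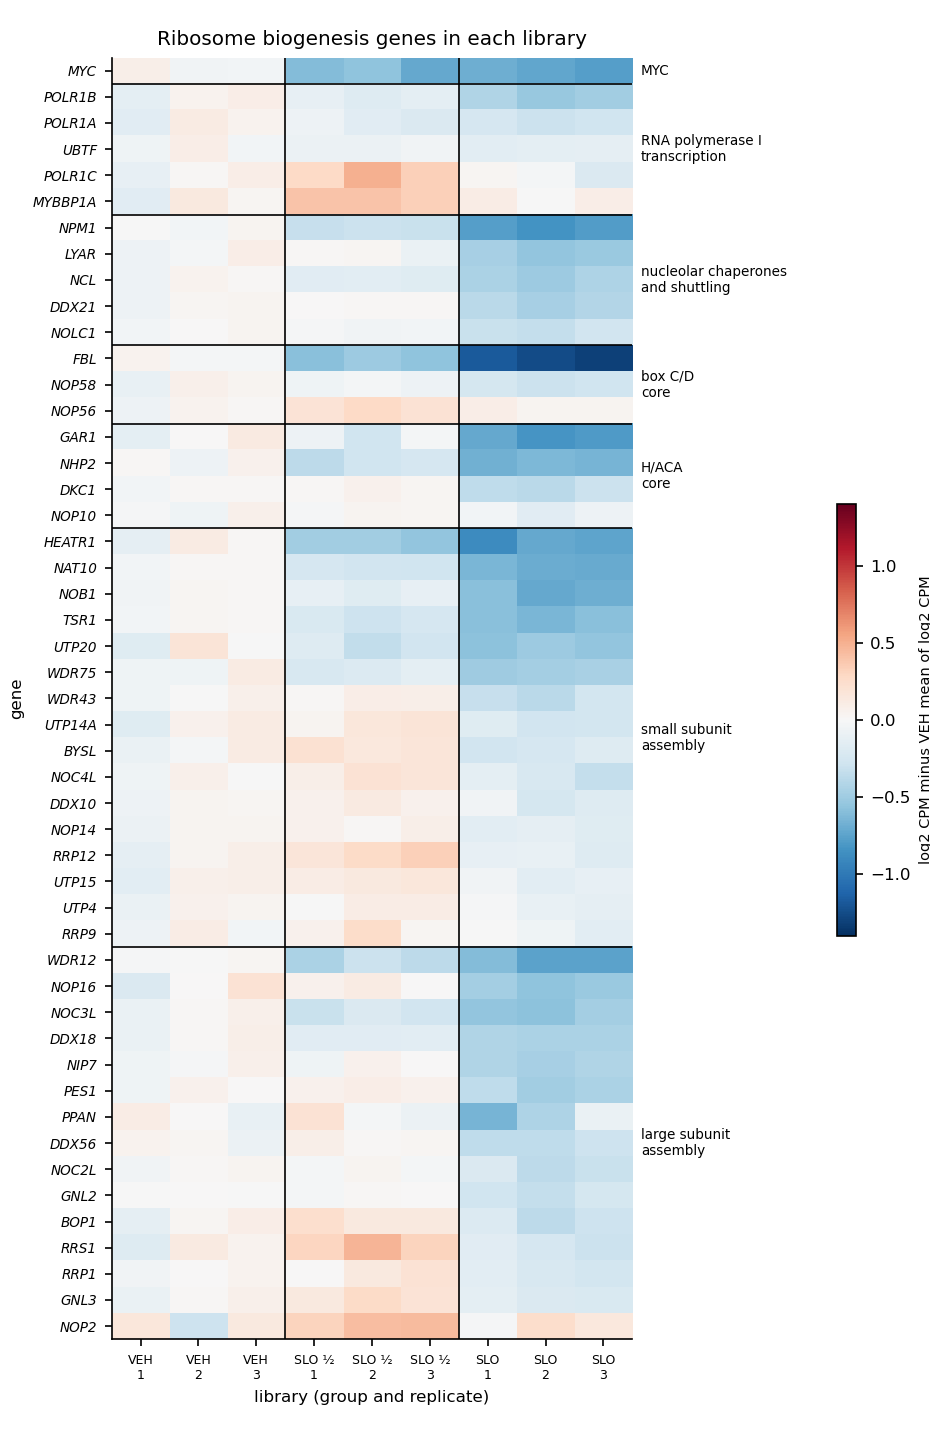
Heatmap of the 49 genes (rows, grouped by role) in the 9 libraries (columns), coloured by log2 CPM minus the mean log2 CPM of the VEH libraries. The SLO columns are blue for all but a few rows, whereas the SLO ½ columns hold blue rows such as MYC, FBL and HEATR1 beside red rows such as POLR1C, MYBBP1A and RRS1.

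In SLO against VEH, 41 of the 49 genes fell and none rose at an adjusted p below 0.05 by edgeR, while 8 were not called. At an unadjusted p under 0.05 the counts were also 41 and 0, DESeq2 called 38 and 0, and with library sizes alone as scaling 33 fell and 2 rose (MYBBP1A and NOP56). Over all tested genes 32.1% fell and 32.9% rose in the main fit. With library sizes alone, 3870 of all 14727 tested genes fell and 5624 rose. The median change of the 49 genes was -0.32 on the log2 scale, that of all tested genes was 0.014, and 22.9% of tested genes lay below the median of the 49. Every SLO library was lower than every VEH library for 36 of the 49 genes, which held for 33.0% of tested genes.

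In SLO ½ against VEH calls went both ways, as they did over all tested genes. Of the 49, 15 fell, 8 rose and 26 were not called, where 25.3% of all tested genes fell and 26.7% rose. A mix of directions at this dose is therefore not particular to the 49. With library sizes alone as scaling, 13 of the 49 were lower and 15 higher, beside 3049 and 4637 of all 14727 tested genes. The 7 genes called higher in addition were WDR43, UTP4, UTP15, UTP14A, DDX10, PES1 and RRP1. The median change of the 49 genes was 0.0097 and that of all tested genes 0.015, and the sign of the former turned with several settings. The 15 lower genes were MYC, POLR1A, POLR1B, NPM1, NCL, FBL, NHP2, HEATR1, WDR75, UTP20, NAT10, TSR1, WDR12, NOC3L and DDX18. The 8 higher genes were POLR1C, MYBBP1A, NOP56, RRP12, BYSL, BOP1, RRS1 and GNL3, of which the last 5 fell in the full-dose comparison. Both comparisons share the 3 VEH libraries. VEH replicate 1 was the lowest of its group for 40 of the 49 genes, and without it 18 fell and 6 rose at the lower dose, and 42 fell and 0 rose at the full dose.

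The direct comparison of the doses takes no level from the VEH libraries. SLO was below SLO ½ for all 49 genes in the estimate, and 43 genes fell while none rose at an adjusted p below 0.05 by edgeR (45 and 0 at an unadjusted p under 0.05, and 41 and 0 by DESeq2). Over all tested genes 20.3% fell and 20.8% rose in this comparison. The median change was -0.34 for the 49 genes and -0.0014 for all tested genes, and 11.7% of tested genes lay below the median of the 49. Every SLO library was lower than every SLO ½ library for 48 of the 49 genes, against 25.6% of tested genes, and the exception was MYC. The 6 genes without a call were MYC, POLR1A, UBTF, NOP10, RRP9 and NOP2, of which POLR1A was called in some other settings, as without a filter (-0.13, adjusted p = 0.0406).

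**Figure D2:**
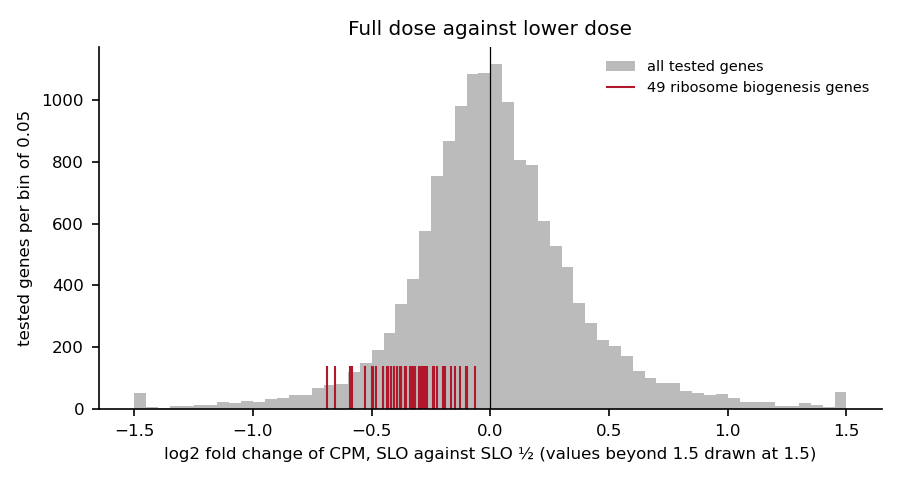
Histogram of the log2 fold change of SLO against SLO ½ for all 14727 tested genes (grey, genes per bin of 0.05), with a red line for each of the 49 ribosome biogenesis genes. All red lines lie below 0, from -0.69 (FBL) to -0.06 (UBTF).

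A short sequence that played no part in the choice of these genes was searched for in their promoters. The E-box, CACGTG, is the site that MYC binds together with MAX, and other helix-loop-helix factors use it too. Promoters of RefSeq (build GRCh38.p14, 250 bases before to 50 after the gene start) matched 42 of the 49 genes. The E-box, which reads alike on both strands, stood in 15 of these 42 promoters (35.7%), in 7.26% of all 35116 promoters of the same length and in 10.1% of the 10135 promoters of tested protein-coding genes. Of the 16 matches in the 15 promoters, 14 began within 50 bases of the gene start. By role, it was found in 8 of 15 promoters of the small subunit group, 4 of 12 of the large subunit group, 1 of 5 of the RNA polymerase I group, 1 of 2 box C/D genes, 1 of 4 H/ACA genes and 0 of 4 nucleolar chaperones. By response, it was found in 10 of the 34 matched genes that fell in SLO and in 5 of the 8 that were not called there. A match is a description of the letters and not a measured binding site. The windows of 30 bases below, in the reading direction of the gene, show the motif in capitals for genes of each kind of response: FBL, NAT10, UTP20 and NOC3L fell at both doses, GNL2 and WDR43 at the full dose alone, BYSL rose and then fell, MYBBP1A rose at the lower dose alone, and NOP10 was called at neither.
FBL, chr19:39846356-39846385, minus strand: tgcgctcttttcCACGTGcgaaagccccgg
NAT10, chr11:34105602-34105631, plus strand: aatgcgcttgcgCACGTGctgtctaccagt
UTP20, chr12:101280083-101280112, plus strand: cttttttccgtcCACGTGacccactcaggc
NOC3L, chr10:94362903-94362932, minus strand: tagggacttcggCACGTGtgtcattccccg
GNL2, chr1:37595917-37595946, minus strand: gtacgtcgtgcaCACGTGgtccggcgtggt
WDR43, chr2:28894658-28894687, plus strand: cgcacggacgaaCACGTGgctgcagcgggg
BYSL, chr6:41921515-41921544, plus strand: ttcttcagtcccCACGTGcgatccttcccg
MYBBP1A, chr17:4555340-4555369, minus strand: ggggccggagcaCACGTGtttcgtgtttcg
NOP10, chr15:34343130-34343159, minus strand: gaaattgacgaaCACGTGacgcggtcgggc

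**Figure D3:**
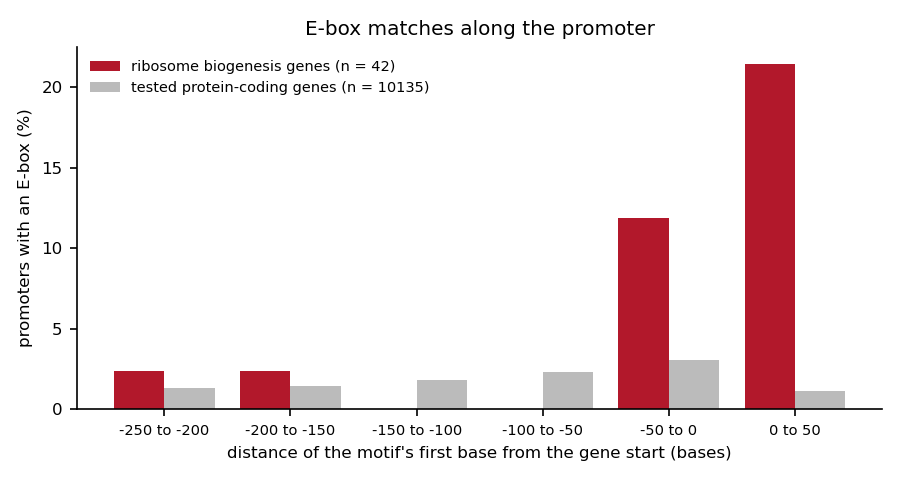
Share of promoters (in percent) with an E-box that begins in each stretch of 50 bases along the promoter, for the 42 matched ribosome biogenesis genes (red) and 10135 tested protein-coding genes (grey). The red bars are highest in the first 50 bases after the start (21.4%, where the grey bar is 1.15%) and in the 50 bases before it (11.9% and 3.06%).

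MYC, the transcription factor that drives growth genes, fell at both doses. Its level was 129, 117 and 119 CPM in VEH, 79.6, 81.9 and 74.1 CPM in SLO ½ and 75.7, 73.5 and 71.1 CPM in SLO. The VEH libraries lay above all others, and the treated groups overlapped. The change from VEH was -0.63 ± 0.048 in SLO ½ (adjusted p = 6.35e-12) and -0.73 ± 0.048 in SLO (adjusted p = 1.10e-13). Between the doses it was -0.10 ± 0.050 (adjusted p = 0.127) and from -0.13 to -0.065 when 1 library was left out.

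Among the genes for RNA polymerase I transcription, the large subunits fell and others rose at the lower dose. POLR1B, one of the 2 large subunits that form the catalytic centre of the enzyme, was measured at 49.5, 56.3 and 58.1 CPM in VEH, 50.2, 48.1 and 49.7 CPM in SLO ½ and 40.6, 37.7 and 39.0 CPM in SLO. The 3 groups were separated except that the lowest VEH library lay within the range of SLO ½. Its change was -0.49 ± 0.059 in SLO (adjusted p = 2.84e-08) and -0.15 ± 0.057 in SLO ½ (adjusted p = 0.0286). POLR1A, the other large subunit, stood at 108, 131 and 125 CPM in VEH, 115, 108 and 105 CPM in SLO ½ and 103, 98.5 and 99.7 CPM in SLO. The SLO libraries were below all VEH libraries, while SLO ½ overlapped VEH. It changed by -0.28 ± 0.053 in SLO (adjusted p = 4.32e-05) and by -0.15 ± 0.053 in SLO ½ (adjusted p = 0.0186). Under several other settings the lower-dose calls of both genes were lost, with -0.099 (adjusted p = 0.187) for POLR1B without VEH replicate 3 and -0.094 (0.148) for POLR1A without VEH replicate 2, whereas POLR1A was at -0.22 without VEH replicate 1.

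UBTF, which binds the promoter and body of the ribosomal DNA and keeps it open, was at 138, 154 and 141 CPM in VEH, 136, 136 and 139 CPM in SLO ½ and 130.0, 131 and 132 CPM in SLO. All SLO libraries were below all VEH libraries by a small margin, with a change of -0.14 ± 0.043 (adjusted p = 0.00555), and this call was lost with library sizes alone (adjusted p = 0.177) or without VEH replicate 2 (-0.092, adjusted p = 0.0667). Its lower-dose change was -0.075 ± 0.043 (adjusted p = 0.140), called by limma on TPM alone (0.0477 and 0.0485). POLR1C, a subunit that RNA polymerases I and III share, went the other way at the lower dose, with 21.8, 23.9 and 25.2 CPM in VEH, 28.6, 33.3 and 29.7 CPM in SLO ½ and 24.1, 23.2 and 20.5 CPM in SLO. SLO ½ was above every library of both other groups, by 0.36 ± 0.075 over VEH (adjusted p = 1.53e-04), and SLO overlapped VEH (-0.066 ± 0.079, adjusted p = 0.472). MYBBP1A, a nucleolar partner of MYB proteins that restrains ribosomal RNA synthesis, had the same shape at 54.4, 66.4 and 61.6 CPM in VEH, 80.0, 79.9 and 76.4 CPM in SLO ½ and 65.0, 60.3 and 64.7 CPM in SLO. Its lower-dose change was 0.37 ± 0.056 (adjusted p = 1.96e-06), and it was 0.058 ± 0.057 at the full dose (adjusted p = 0.381), a value whose sign turned without VEH replicate 1 (-0.013).

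The nucleolar chaperones and shuttling proteins all fell at the full dose, 5 of 5, where 32.1% of all tested genes fell. NPM1 (chr5:171387116-171411810, plus strand, build GRCh38), a histone and ribosome chaperone that moves between nucleolus and cytoplasm, was at 1038, 1011 and 1068 CPM in VEH, 827, 842 and 835 CPM in SLO ½ and 610.0, 581 and 603 CPM in SLO. The 3 groups did not overlap. It changed by -0.32 ± 0.039 in SLO ½ (adjusted p = 7.57e-08) and -0.80 ± 0.039 in SLO (adjusted p = 1.17e-16). At the full dose the level fell by 42.4%. The count data list 49 genes with names of NPM1 pseudogenes. Together these held 727 reads over the 9 libraries where NPM1 held 124423, and reads that matched several places were not counted. NCL, an RNA-binding protein that is among the most abundant of the nucleolus, was at 1464, 1588 and 1559 CPM in VEH, 1372, 1389.6 and 1361 CPM in SLO ½ and 1131, 1077 and 1139 CPM in SLO. Its groups did not overlap either, and the changes were -0.16 ± 0.041 (adjusted p = 0.00151) and -0.46 ± 0.041 (adjusted p = 5.84e-11).

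DDX21, an RNA helicase that acts in both transcription and processing of ribosomal RNA, fell at the full dose. It was at 493, 526 and 533 CPM in VEH, 517, 523 and 522 CPM in SLO ½ and 398, 374 and 388 CPM in SLO, so SLO ½ lay inside the VEH range and SLO below both. The changes were 0.0097 (adjusted p = 0.855) and -0.42 ± 0.040 (adjusted p = 3.04e-10). LYAR, a nucleolar protein of growing cells, and NOLC1, which accompanies small nucleolar ribonucleoproteins, followed the same course. LYAR changed by -0.019 and -0.52 at the lower and the full dose and NOLC1 by -0.034 and -0.30, with full-dose adjusted p of 3.51e-09 and 7.01e-08.

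Among the 49 genes are 3 for core proteins of the box C/D particles, which sit in one complex, and these 3 changed unequally. FBL (chr19:39834458-39846379, minus strand), fibrillarin, the enzyme that methylates ribose in ribosomal RNA, showed the largest fall of all 49 genes in SLO. Its level was 137, 129.9 and 130.5 CPM in VEH, 88.3, 93.0 and 89.5 CPM in SLO ½ and 58.8, 55.4 and 53.5 CPM in SLO. The groups were widely separated, and the level fell by 31.9% in SLO ½ and by 57.8% in SLO. The changes were -0.55 ± 0.044 (adjusted p = 1.70e-11), -1.24 ± 0.047 (adjusted p = 2.64e-19) and, between the doses, -0.69 ± 0.048 (adjusted p = 2.51e-12). NOP58, a scaffold of the same particle, was at 157, 178 and 173 CPM in VEH, 162, 166 and 162 CPM in SLO ½ and 143, 137 and 139.6 CPM in SLO. SLO was below VEH in every library, whereas SLO ½ lay within the VEH range. It changed by -0.28 ± 0.044 in SLO (adjusted p = 2.73e-06) and -0.053 ± 0.043 in SLO ½ (adjusted p = 0.313). The latter ranged from -0.10 without VEH replicate 1, where it was called (adjusted p = 0.0434), to -0.019 without VEH replicate 2.

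NOP56, the other scaffold, was at 257, 278 and 272 CPM in VEH, 306, 327 and 309 CPM in SLO ½ and 287, 276 and 277 CPM in SLO. SLO ½ stood above every other library, and SLO and VEH overlapped. Its lower-dose change was 0.22 ± 0.041 (adjusted p = 4.07e-05) and its full-dose change 0.059 ± 0.041 (adjusted p = 0.217), and from SLO ½ to SLO it fell by 0.16 on the log2 scale (adjusted p = 0.00177). Small RNAs encoded in its introns share 9.5% of its annotated exon bases on the same strand. The ratio of FBL to NOP56 in TPM, chosen after the values were seen, was 1.24, 1.08 and 1.11 in VEH, 0.668, 0.659 and 0.670 in SLO ½ and 0.474, 0.465 and 0.448 in SLO.

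**Figure D4:**
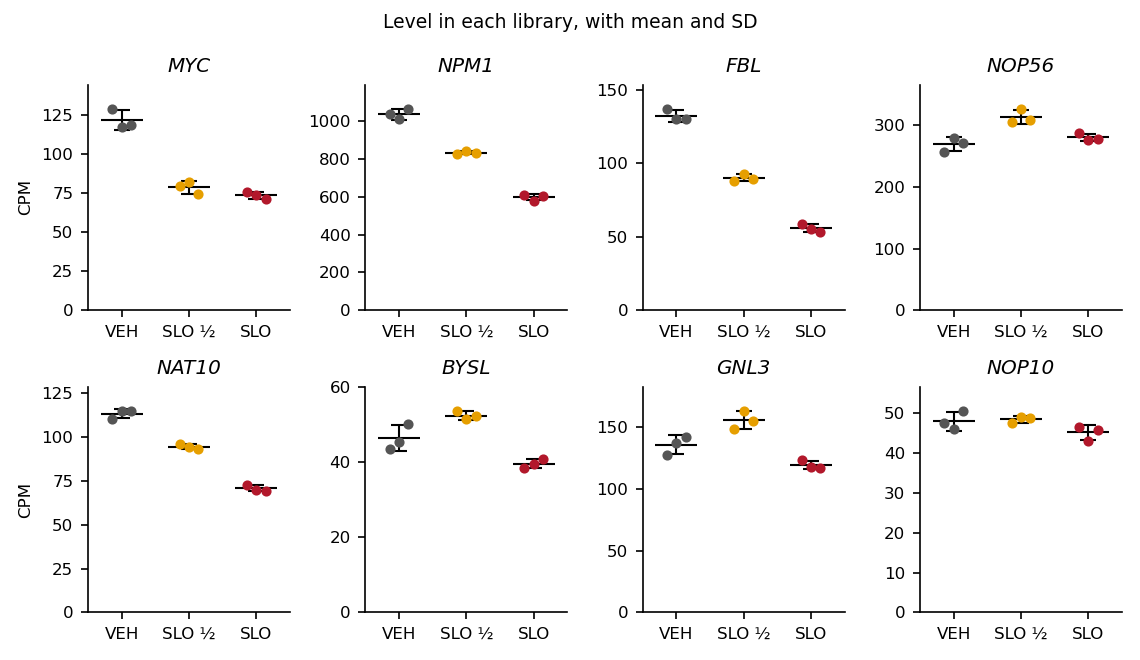
CPM of 8 genes in each library (points, 3 per group), with the mean (bar) and SD (whiskers). MYC reaches its lower level in SLO ½ already. NPM1, FBL and NAT10 step down from VEH (1039, 133 and 113 CPM) over SLO ½ to SLO (598, 55.9 and 70.8 CPM). NOP56, BYSL and GNL3 are highest in SLO ½. For NOP10 the VEH libraries overlap both other groups, and SLO lies just below SLO ½.

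Of the 4 proteins of the H/ACA particles, 3 fell at the full dose, where 32.1% of all tested genes fell. NHP2, a core RNA-binding subunit, was at 59.1, 55.7 and 60.8 CPM in VEH, 45.3, 48.3 and 49.8 CPM in SLO ½ and 36.7, 37.8 and 37.4 CPM in SLO, in 3 groups without overlap. It changed by -0.29 ± 0.053 (adjusted p = 2.77e-05) and -0.65 ± 0.055 (adjusted p = 1.82e-11). GAR1, a subunit that joins late in assembly, was at 25.8, 28.4 and 31.0 CPM in VEH, 27.0, 23.3 and 27.7 CPM in SLO ½ and 17.3, 16.0 and 16.3 CPM in SLO. SLO lay below all other libraries, at -0.79 ± 0.081 from VEH (adjusted p = 1.22e-09), and the lower-dose change was -0.13 ± 0.075 (adjusted p = 0.139). That change ranged from -0.20 without VEH replicate 1, where it was called (adjusted p = 0.0358), to -0.059 without VEH replicate 3. DKC1, the pseudouridine synthase itself and also a part of telomerase, was at 129.7, 135 and 135 CPM in VEH, 134, 139 and 135 CPM in SLO ½ and 104, 103 and 109 CPM in SLO. SLO ½ overlapped VEH and SLO lay below both. It changed by -0.34 ± 0.041 in SLO (adjusted p = 2.59e-08) and by 0.032 ± 0.040 in SLO ½ (adjusted p = 0.528). NOP10, the smallest subunit, was not called in any comparison, with 47.6, 46.0 and 50.6 CPM in VEH, 47.5, 49.2 and 48.9 CPM in SLO ½ and 46.7, 43.1 and 45.8 CPM in SLO and a full-dose change of -0.091 ± 0.055 (adjusted p = 0.145).

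**Figure D5:**
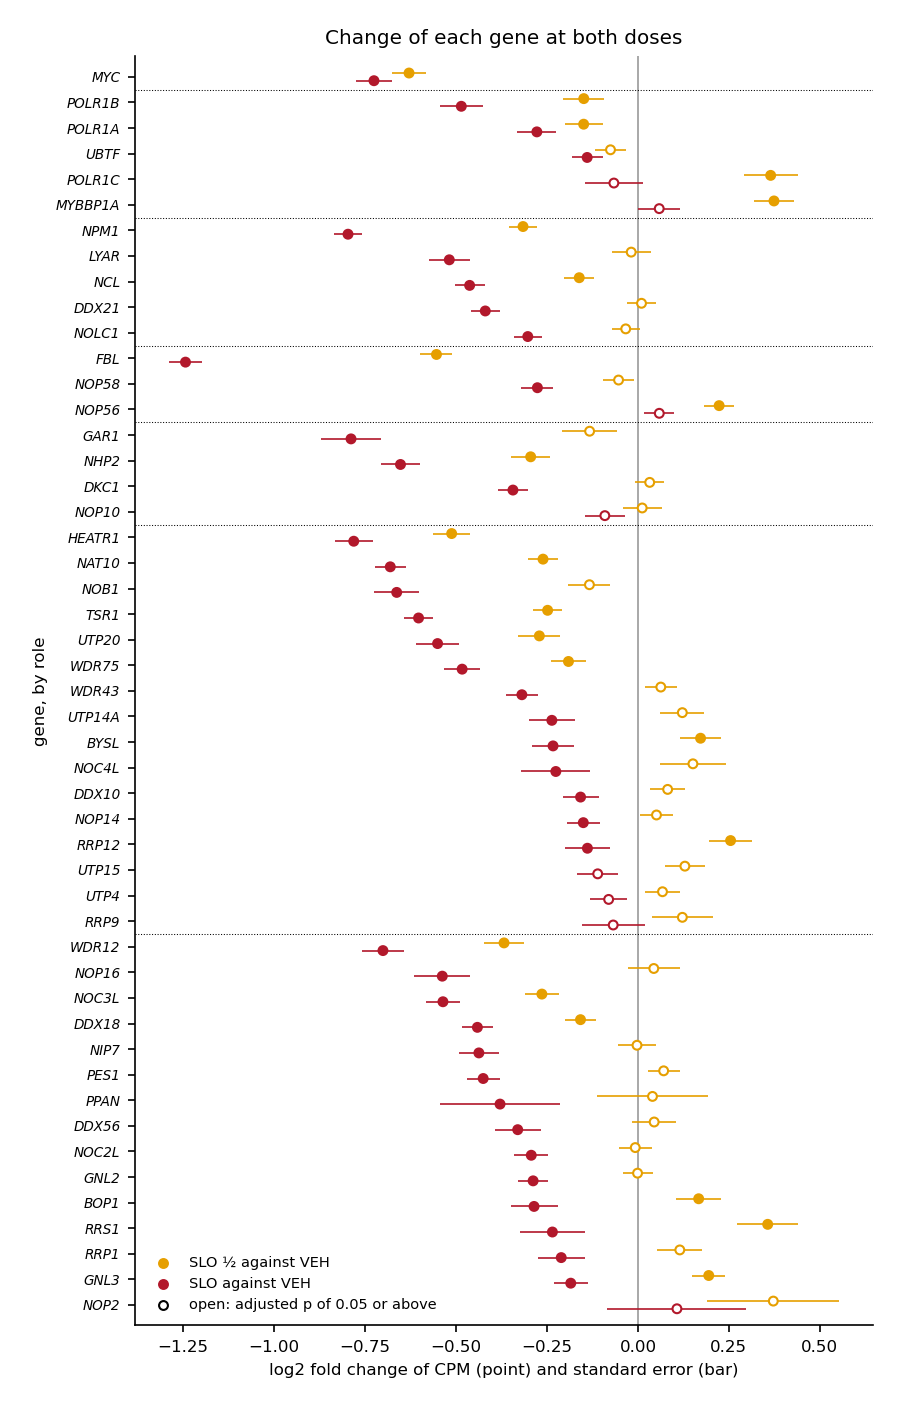
Log2 fold change against VEH (points) with its standard error (bars) for each of the 49 genes, ordered by role, in SLO ½ (orange) and SLO (red), with open points at an adjusted p of 0.05 or above. Red points lie left of the orange point of the same gene in every row, and orange points spread to both sides of 0, from -0.63 (MYC) to 0.37 (MYBBP1A).

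Small subunit assembly was the largest group, with 16 genes, of which 13 fell and 0 rose in SLO, while 5 fell and 2 rose in SLO ½ and 15 fell from SLO ½ to SLO. Of all tested genes 32.1% fell and 32.9% rose in SLO, 25.3% and 26.7% in SLO ½, and 20.3% fell between the doses. Nothing particular to the group is read from its lower-dose counts. NAT10 (chr11:34105617-34147670, plus strand), which acetylates cytidines of the small subunit RNA, was at 110.4, 115 and 115 CPM in VEH, 96.4, 94.4 and 93.2 CPM in SLO ½ and 72.7, 70.2 and 69.4 CPM in SLO. The 3 groups did not overlap, with changes of -0.26 ± 0.042 (adjusted p = 5.86e-06) and -0.68 ± 0.043 (adjusted p = 4.27e-14). TSR1, a GTPase-like factor of late small subunit maturation, was at 232, 242 and 241 CPM in VEH, 205, 195 and 202 CPM in SLO ½ and 159, 153 and 159 CPM in SLO. Again no library of one group reached another, and the changes were -0.25 ± 0.039 (adjusted p = 4.03e-06) and -0.60 ± 0.040 (adjusted p = 8.00e-14). HEATR1, a processome subunit that links transcription of the precursor to its processing, was at 133, 157 and 147 CPM in VEH, 104, 104 and 99.6 CPM in SLO ½ and 79.1, 88.5 and 87.4 CPM in SLO. It had the largest full-dose fall of the group, -0.78 ± 0.052 (adjusted p = 1.25e-13), and -0.51 ± 0.051 at the lower dose (adjusted p = 1.63e-09).

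Calls varied among further subunits of the processome. WDR75 fell at both doses (-0.19, or -0.13 without VEH replicate 3, and -0.48), as did UTP20, a large scaffold (-0.27 and -0.55). WDR43 was called against VEH at the full dose (-0.32, adjusted p = 4.01e-07, against 0.063 and 0.238 at the lower dose). UTP4 and UTP15 were called at neither dose against VEH (-0.081 and -0.11 at the full dose, adjusted p = 0.159 and 0.0906), although both fell from SLO ½ to SLO (-0.15 and -0.24, adjusted p = 0.0172 and 0.00100). Without VEH replicate 1 both were called at the full dose (-0.12 and -0.18, adjusted p = 0.0406 and 0.00553), and UTP15 was called higher at the lower dose in some settings, as with the replicate block (0.13, adjusted p = 0.0462) or without VEH replicate 3 (0.17, 0.0213). For UTP4 the call between the doses was lost under several settings, with an adjusted p of up to 0.096 when 1 library was left out.

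NOB1, the endonuclease that makes the last cut of the small subunit RNA, also fell in SLO. It was at 37.6, 39.8 and 39.4 CPM in VEH and 25.9, 23.6 and 24.3 CPM in SLO, a change of -0.66 ± 0.061 (adjusted p = 1.33e-10), and at 35.9, 34.7 and 36.0 CPM in SLO ½ (-0.13, adjusted p = 0.0532). The lower-dose change was called in some other settings, with an adjusted p down to 0.00967 by limma. UTP14A, the processome scaffold NOP14, its partner NOC4L and the helicase DDX10 changed by -0.24, -0.15, -0.23 and -0.16 in SLO, with adjusted p of 0.00164, 0.00470, 0.0394 and 0.00639. None of these 4 was called at the lower dose, where their estimates lay between 0.051 and 0.15, although UTP14A was called higher without VEH replicate 3 (0.18, adjusted p = 0.022) or SLO ½ replicate 1 (0.16, 0.0428). The full-dose calls of NOP14, NOC4L and DDX10 were lost with library sizes alone (adjusted p = 0.143, 0.169 and 0.131), that of DDX10 also without SLO replicate 2 (0.0643), and that of NOC4L also by DESeq2 (0.0925), with either other filter (0.0591 and 0.0645) and without any of 4 libraries (up to 0.146). RRP9, a protein specific to the U3 particle that guides the first cuts, was called in no comparison (-0.068 in SLO and 0.12 in SLO ½, adjusted p = 0.501 and 0.228), and its full-dose sign turned with library sizes alone (0.0067).

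RRP12 and BYSL, which act late in the maturation and export of the small subunit, were called in opposite directions at the doses. BYSL was at 43.6, 45.4 and 50.2 CPM in VEH, 53.7, 51.4 and 52.2 CPM in SLO ½ and 38.6, 39.4 and 40.8 CPM in SLO. SLO ½ lay above all VEH libraries and SLO below them. The changes were 0.17 ± 0.055 (adjusted p = 0.0104) and -0.23 ± 0.058 (adjusted p = 8.49e-04), and between the doses -0.41 ± 0.057 (adjusted p = 1.25e-06). RRP12 was at 39.4, 44.1 and 45.4 CPM in VEH, 48.3, 51.9 and 54.1 CPM in SLO ½ and 39.7, 39.8 and 37.8 CPM in SLO. SLO ½ was again above all VEH libraries, while the lowest VEH library lay within the range of SLO. It changed by 0.25 ± 0.059 (adjusted p = 5.68e-04) and -0.14 ± 0.061 (adjusted p = 0.0475), and by -0.39 ± 0.060 between the doses (adjusted p = 4.02e-06). The full-dose call of RRP12 was lost by DESeq2 (adjusted p = 0.0857) and under most other settings, and the lower-dose call of BYSL without VEH replicate 1 (adjusted p = 0.0682) and by limma on TPM (0.052 and 0.0523).

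Large subunit assembly held 15 genes, of which 14 fell and 0 rose in SLO, 3 fell and 3 rose in SLO ½, and 14 fell from SLO ½ to SLO. The shares of all tested genes were 32.1% and 32.9% in SLO, 25.3% and 26.7% in SLO ½, and 20.3% lower between the doses. Here too, nothing particular is read from the lower-dose counts. WDR12, a scaffold of the complex with PES1 and BOP1 that is needed for processing of the large subunit RNA, was at 54.0, 54.6 and 55.8 CPM in VEH, 40.3, 44.5 and 42.5 CPM in SLO ½ and 35.8, 32.6 and 32.6 CPM in SLO. The groups did not overlap, with changes of -0.37 ± 0.055 (adjusted p = 1.83e-06) and -0.70 ± 0.057 (adjusted p = 8.55e-12). NOC3L, which travels with early large subunit particles, was at 106, 114 and 118 CPM in VEH, 90.9, 97.8 and 93.6 CPM in SLO ½ and 77.0, 75.9 and 81.1 CPM in SLO. It fell at both doses, by -0.26 (adjusted p = 2.33e-05) and -0.54 ± 0.048 (adjusted p = 6.17e-11). DDX18, a helicase of the large subunit pathway, was at 240.1, 259 and 271 CPM in VEH, 229, 230.0 and 232 CPM in SLO ½ and 191, 188 and 189 CPM in SLO. Neither gene had overlapping groups, and DDX18 changed by -0.16 (adjusted p = 0.00208) and -0.44 ± 0.042 (adjusted p = 2.56e-10).

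The partners of WDR12 in its complex took other courses at the lower dose. PES1 was at 103, 112 and 108 CPM in VEH, 113, 115 and 112 CPM in SLO ½ and 84.1, 77.2 and 79.5 CPM in SLO, so that SLO lay below all other libraries (-0.43 ± 0.046, adjusted p = 2.76e-09) and SLO ½ overlapped VEH (0.071, adjusted p = 0.184). BOP1, the third member, was at 36.5, 40.4 and 42.4 CPM in VEH, 46.9, 43.8 and 43.5 CPM in SLO ½ and 34.9, 30.8 and 32.4 CPM in SLO. SLO ½ lay above and SLO below all VEH libraries. It rose at the lower dose (0.17 ± 0.061, adjusted p = 0.0239), fell at the full dose (-0.29 ± 0.065, adjusted p = 3.17e-04) and changed by -0.45 ± 0.063 between the doses (adjusted p = 1.20e-06). The lower-dose call of BOP1 was lost by DESeq2 (adjusted p = 0.0787), without a filter (0.0638), by limma on TPM (0.133 and 0.132), without VEH replicate 1 (0.11 on the log2 scale, adjusted p = 0.15) and without SLO ½ replicate 1 (0.123), while its difference between the doses kept its call in all alternatives.

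GNL3 and RRS1 shared the pattern of opposite calls. GNL3, nucleostemin, a GTPase known from dividing and stem cells, was at 127, 137 and 142 CPM in VEH, 148, 163 and 154 CPM in SLO ½ and 123, 118 and 117 CPM in SLO. SLO ½ lay above and SLO below all VEH libraries. It changed by 0.19 ± 0.045 (adjusted p = 6.47e-04), -0.18 ± 0.046 (adjusted p = 9.50e-04) and -0.38 ± 0.046 between the doses (adjusted p = 1.05e-07), and these calls were kept in all alternatives. RRS1, which brings the small ribonucleoprotein with the smallest ribosomal RNA to the large subunit, was at 14.2, 17.4 and 16.6 CPM in VEH, 19.7, 22.2 and 19.8 CPM in SLO ½ and 14.3, 13.5 and 13.0 CPM in SLO. SLO overlapped VEH by its highest library. The changes were 0.36 ± 0.083 (adjusted p = 6.65e-04), -0.24 ± 0.090 (adjusted p = 0.0236) and -0.59 ± 0.086 (adjusted p = 2.20e-06), and the full-dose call was lost with library sizes alone (adjusted p = 0.122) and when any of 4 libraries was left out (up to 0.113). Over all tested genes, 62 (0.421%) rose in SLO ½ and fell in SLO against VEH, and 5 of the 49 did.

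The other large subunit genes fell at the full dose alone, with the exception of NOP2. Among them the GTPase GNL2 was at 107, 108 and 107 CPM in VEH, 105, 108 and 108 CPM in SLO ½ and 88.3, 84.9 and 90.2 CPM in SLO, so that the first 2 groups overlapped and SLO stood apart (-0.29 ± 0.042, adjusted p = 7.92e-07). NIP7 changed by -0.44, NOP16 by -0.54, the helicase DDX56 by -0.33, NOC2L by -0.29 and RRP1 by -0.21 in SLO, with adjusted p from 4.35e-08 to 0.00526. The call of RRP1 was lost with library sizes alone (-0.14, adjusted p = 0.0681). Their lower-dose estimates lay between -0.0074 and 0.12 and none was called, although RRP1 was called higher without SLO ½ replicate 1 (0.17, adjusted p = 0.0371). PPAN changed by -0.38 ± 0.16 in SLO (adjusted p = 0.0445) at 2.78 to 4.70 CPM over those groups, and its call was lost by DESeq2 (adjusted p = 0.101), with library sizes alone (0.106), with the replicate block (0.0502), at a minimum of 10 counts per library (0.0558) and without any of 4 libraries (up to 0.211). It shares 49.2% of its exon bases with the readthrough gene PPAN-P2RY11 and with P2RY11, and STAR does not count reads that fit several genes. NOP2, a methyltransferase of the large subunit RNA, shares 54.4% with a protein-coding readthrough gene, held 402 reads over the 9 libraries and was called in no comparison (0.11, adjusted p = 0.638, in SLO). Values of NOP2 and PPAN are therefore uncertain.

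Other genes of the same pathways, from lists chosen with earlier results of these data known, also fell more often than they rose in SLO. Of all tested genes 32.1% fell and 32.9% rose there, and 25.3% fell and 26.7% rose in SLO ½, so that nothing particular to these lists is read from their lower-dose counts. Of 43 further small subunit factors, 25 fell and 3 rose in SLO (13 and 8 in SLO ½). KRR1, a processome protein, had the smallest p of these (135, 100.3 and 83.7 CPM in VEH, SLO ½ and SLO, log2 fold change -0.69 in SLO), followed by WDR46 (-0.58) and UTP18 (-0.61). Of 46 further large subunit factors, 35 fell and 4 rose (15 and 6 in SLO ½), led by NSA2 (-0.69), EBNA1BP2 (-0.73) and RSL24D1 (-0.64). Of 12 further genes for RNA polymerase I transcription, 9 fell and 1 rose (6 and 3 in SLO ½), led by TAF1D (-0.46), POLR1E (-0.42) and POLR1H (-0.82). Of 10 further genes for small nucleolar ribonucleoproteins and their assembly, 7 fell and 1 rose (3 and 2 in SLO ½). Among them were the ATPases RUVBL1 (-0.47) and RUVBL2 (-0.52) and NAF1 (-0.78).

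Pooled, these 111 genes had a median change of -0.24 in SLO, -0.040 in SLO ½ and -0.20 between the doses, beside -0.32, 0.0097 and -0.34 for the 49. Between the doses 76 of the 111 fell and 1 rose, where 20.3% and 20.8% of all tested genes did. The pattern of a rise at the lower dose and a fall at the full dose was found for 2 of the 111, DHX37, a processome helicase, and GTPBP4, a GTPase of the large subunit, both named after their values were seen. The E-box stood in 26 of the 94 promoters of these genes that were matched (27.7%). For the lists described below it stood in 3 of 64 promoters of cytosolic ribosomal proteins (4.69%) and 1 of 12 of the RNA exosome (8.33%). It stood in 7 of 14 of MYC targets outside the ribosome, 3 of 11 of the MYC network and 2 of 10 of proliferation markers. A link between the motif and a fall was not tested.

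Counts for lists next to the pathway stand beside the same shares of all tested genes. The RNA exosome, which trims ribosomal RNA ends, fell for 11 and rose for 0 of 14 genes in SLO (7 and 0 in SLO ½), led by its helicase MTREX (206, 151 and 124 CPM, -0.73 in SLO, adjusted p = 1.81e-15), EXOSC9 (-0.42) and EXOSC8 (-0.46). Known MYC targets outside the ribosome fell for 12 and rose for 0 of 15 genes (8 and 1 in SLO ½), led by the chaperonin HSPD1 (-0.91), the glycolytic enzyme ENO1 (-0.82) and PRMT5 (-0.64). Of 10 tested partners and antagonists of MYC, 5 fell and 3 rose in SLO with a median change of -0.054, where 32.1% and 32.9% of all tested genes did. MXD1, which competes with MYC for MAX, was at 13.4, 16.3 and 26.5 CPM in VEH, SLO ½ and SLO (0.99 in SLO, adjusted p = 1.55e-11), its relative MXD4 rose too (0.66, adjusted p = 2.37e-10), and MXI1 of the same family fell (-0.85, adjusted p = 1.46e-08).

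The end products of this pathway, the cytosolic ribosomal proteins, fell at both doses. Of 80 genes, 77 fell and 1 rose in SLO, 66 fell and 2 rose in SLO ½, and 77 fell and 0 rose from SLO ½ to SLO, with medians of -0.64, -0.25 and -0.38. The shares of all tested genes that fell and rose were 32.1% and 32.9%, 25.3% and 26.7%, and 20.3% and 20.8% in these comparisons. The 49 assembly genes, with medians of -0.32, 0.0097 and -0.34, had nearly the same step between the doses and a different one from VEH to SLO ½, and this difference between the lists was not tested. RPSA (-1.06 in SLO), RPL27A (-0.86) and RPL7 (-0.96) had the smallest p of the list. Proliferation markers fell for 7 and rose for 2 of 10 genes in SLO and fell for 6 and rose for 0 in SLO ½, with -0.78 for CCNB1, -0.89 for MKI67 and -0.60 for MCM2 in SLO.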

How the data were processed

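RNA of HMC3 cells was measured in 9 libraries, 3 each of VEH, SLO ½ and SLO, grouped by their labels. The authors used Trimmomatic 0.38 for trimming and STAR 2.7.1a for alignment to GRCh38 and for stranded counting of uniquely aligned reads per gene. Counts were deposited unnormalized, beside the authors' TPM, whose gene lengths and annotation release are not given in the sources used here. Lines without a gene (7.16% to 8.52% of reads matched several places, 3.03% to 3.26% were ambiguous, 5.54% to 8.38% lay outside genes and 0.883% to 0.984% were unmapped) were left out.

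In R 4.3.3, edgeR 4.0.16 fitted its quasi-likelihood model with the 3 groups to the counts of all 9 libraries after filterByExpr (14727 of 32299 genes with a count) and TMM scaling (0.968 to 1.035), with Benjamini-Hochberg adjustment over all tested genes. On simulated data with 200 genes changed 1.5-fold in SLO against VEH, 69.5% of them were recovered and 10 of the 14727 genes were called falsely. Standard errors were derived from the fold change and F statistic. Reads per member over all libraries ranged from 402 to 202399. TPM served for levels compared between genes. GENCODE 44 gave exon overlaps, with 48 of the 49 genes at the same coordinates as deposited, and RefSeq gave promoters. Pseudogenes were found by their names in the count data.

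The members and lists were chosen with earlier results of these data known. All 49 genes are named. Values in every library and full statistics were given for MYC, the 3 lowest p-values of the full-dose comparison in each other role group, and genes called against most of their group or in opposite directions at the doses. POLR1C, MYBBP1A and NOP56, where calls in a role group were balanced, and the values in every library of PES1, NOB1, NOP10 and GNL2 were added after values were seen. Of each other list the 3 genes with the smallest p were named. Alternatives were DESeq2 1.42.0, DESeq2 size factors, library sizes alone, a replicate block, limma 3.58.1 on log2(TPM + 1) or log2(TPM + 0.1), no filter or a minimum of 10 counts per library, fits of the compared groups alone, and each library left out.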

Additional observations from a re-analysis of the deposited data

Results flagged for a closer look

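The 2 doses were compared directly, and the test of that difference called 43 of the 49 genes lower in SLO than in SLO ½ and 0 higher by edgeR (45 and 0 at an unadjusted p under 0.05, 41 and 0 by DESeq2), where 20.3% of all tested genes were lower.

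The 5 genes called higher in SLO ½ and lower in SLO against VEH also differed between the doses. They were picked by calls from these same treated libraries, so this difference follows largely from the choice and is no further support. In some other settings the lower-dose calls of BYSL and BOP1 and the full-dose calls of RRP12 and RRS1 were lost. The log2 fold changes from SLO ½ to SLO were -0.39 for RRP12, -0.41 for BYSL, -0.45 for BOP1, -0.59 for RRS1 and -0.38 for GNL3, with adjusted p of 4.02e-06, 1.25e-06, 1.20e-06, 2.20e-06 and 1.05e-07. Every SLO library was below every SLO ½ library for each of them.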

How the results depend on the processing

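The count of genes that fell ranged over all alternatives from 33 (library sizes alone) to 42 (without VEH replicate 1) of 49 in SLO against VEH, from 13 to 18 in SLO ½ against VEH and from 41 to 44 in SLO against SLO ½. Library sizes alone put the median of all tested genes at 0.089 (0.014 with TMM) in SLO and at 0.065 (0.015) in SLO ½. With them 2 of the 49 genes rose in SLO and 15 in SLO ½, beside 5624 and 4637 of all 14727 tested genes. The medians of the 49 genes were then -0.24 in SLO, 0.060 in SLO ½ and -0.31 between the doses. The lower-dose median turned its sign by DESeq2 (-0.000864), with DESeq2 size factors (-0.000808), without a filter (-0.0058) and by limma on TPM (-0.0312 with a pseudocount of 1 and -0.0313 with 0.1), and ranged from -0.024 to 0.032 when 1 library was left out, so it gives no direction. It is the value of DDX21 in these settings, whose lower-dose sign turned with it. The median between the doses was -0.29 and -0.30 by limma on TPM and -0.36 to -0.32 when 1 library was left out, and that in SLO against VEH -0.35 to -0.29. DKC1 at the lower dose turned its sign by limma (-0.0093 and -0.0094), POLR1C and RRP9 at the full dose with library sizes alone (0.0087 and 0.0067), and MYBBP1A and NOP2 at the full dose ranged from -0.013 to 0.12 and from -0.014 to 0.18 when 1 library was left out, all of them uncalled in these settings. Lower-dose estimates near 0 gave no direction either: with library sizes alone GNL2, LYAR, NIP7, NOC2L and NOLC1 turned to 0.049, 0.031, 0.048, 0.043 and 0.017, with at least 10 counts per library the first 4 turned to 0.018, 0.00083, 0.017 and 0.012, NOP10 turned without a filter (-0.0045), and NOP10 and PPAN turned by limma (-0.0265 and -0.0104 with a pseudocount of 1, -0.0266 and -0.0121 with 0.1). With 1 library left out, these ranged from -0.018 to 0.010 for GNL2, -0.053 to 0.033 for LYAR, -0.033 to 0.038 for NIP7, -0.031 to 0.012 for NOC2L, -0.019 to 0.053 for NOP10, -0.052 to 0.16 for NOP16 and -0.054 to 0.091 for PPAN. The cause was not tested.

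The labels give same-numbered libraries of different groups no link beyond the number. Deviations from their group means correlated by -0.0021 to 0.11, which cannot settle whether these libraries were paired. With the replicate block, 40 genes fell and 0 rose in SLO, 15 fell and 9 rose in SLO ½, and 43 fell and 0 rose between the doses. PPAN (near 4 CPM) and NOP2 (lower) held few counted reads, and 49.2% and 54.4% of their exon bases are shared with other genes. How much depth and this overlap each limit their values was not tested.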

Other observations

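Ratios of TPM between partners of one complex, chosen after the values were seen, also moved. GAR1 to DKC1, both of the H/ACA particle, was 0.933, 0.984 and 1.08 in VEH, 0.939, 0.787 and 0.959 in SLO ½ and 0.779, 0.726 and 0.703 in SLO. WDR12 to BOP1, partners in large subunit assembly, was 0.590, 0.539 and 0.526 in VEH, 0.343, 0.406 and 0.391 in SLO ½ and 0.410, 0.423 and 0.402 in SLO. Both treated groups lay below VEH for WDR12 to BOP1, while GAR1 to DKC1 overlapped between VEH and SLO ½ and was lowest in SLO.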
